A study of Mus musculus with 2 samples.

Results

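Notch receptors and their ligands were examined in fetal mouse thymic stromal cells kept either as a reaggregate thymus organ culture (RTOC), in which dispersed cells sit as a 3D pellet on a membrane, or as a flat 2D culture on a dish. The set held 9 genes: the receptors Notch1, Notch2, Notch3 and Notch4, the Delta-like ligands Dll1 and Dll4, the Jagged ligands Jag1 and Jag2, and the non-canonical ligand Dlk1. Genes were included where a non-control array probe carried the gene's name or an accession of it, which gave 14 probes at 32 spots per array for these 9 of the 19505 genes named on the array (41174 probes).

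The study hybridised 2 two-colour arrays, each pairing RTOC (Cy5) with 2D culture (Cy3). Stroma on one array came from E14.5 C57BL/6 fetuses after 8 days of organ culture, and on the other from E15.5 fetuses after 9 days. All 4 RNA samples shared treatment of the lobes with 1.35 mM deoxyguanosine, which depletes developing lymphocytes, then enzymatic dispersal and 72 h in RTOC or 2D culture. Both arrays were on 1 slide and had the same dye orientation, so culture and dye cannot be told apart, and neither can embryonic stage, organ culture length and array. The number of arrays limits the precision of every value below. The p-values from limma rest on the spread between these 2 arrays, pooled in part over all tested probes. The fit treats the arrays as 2 replicates, though they differ in embryonic stage and organ culture length. That spread may thus hold these differences as well as technical ones, which the labels do not separate.

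Notch signalling passes between touching cells: a Delta-like or Jagged ligand on one cell engages a Notch receptor on its neighbour, proteases cut the receptor, and its intracellular part enters the nucleus and joins RBPJ to switch on target genes of the Hes and Hey families. In the thymus, Dll4 on epithelial cells acts on Notch1 of incoming progenitors to commit them to the T-cell lineage, and Dll4 expression in the epithelium depends on the transcription factor Foxn1. Dll4, Notch4, Jag1 and Hey genes are also well known from blood vessels, and Notch3 from the mural cells around them.

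Of the 9 genes, 4 were higher in RTOC and none was lower at the threshold: Dll4, Notch4, Dlk1 and Jag2. A gene was read from its brightest tested probe and called at a Benjamini-Hochberg adjusted p under 0.05 in limma, fitted over all tested probes. At an unadjusted p under 0.05 in limma, 6 of the 9 passed, with Notch1, higher, and Jag1, lower, added to the 4 called. So did 10228 of the 23685 tested probes. By the rule for calls 28.1% of the 13506 tested genes were called, 15.4% higher and 12.7% lower in RTOC. The median log2 ratio of RTOC over 2D culture was 1.01 over the 9 genes and 0.00 over all tested genes. Log2 ratios were above 0 on both arrays for 6 of the 9 genes and below 0 on both for 1, Jag1. Of the 13506 tested genes, 5413 were above 0 on both arrays and 5338 below 0 on both. These are whole cultures, so fewer cells of a type and less RNA per cell cannot be told apart.

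**Figure D1:**
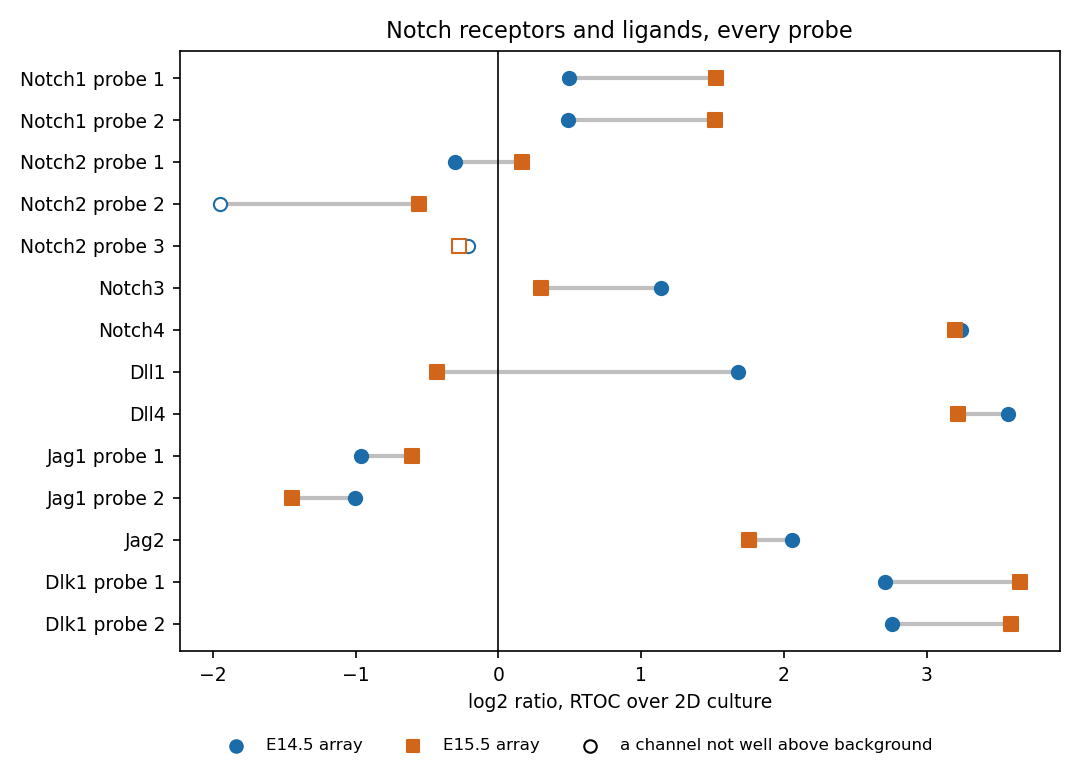
Log2 ratio of RTOC over 2D culture (x axis) for each of the 14 probes, with circles for the E14.5 array, squares for the E15.5 array and open symbols where a channel of that array was not well above background. Dll4, Notch4 and both Dlk1 probes lie above 2.7 on both arrays, while the 2 symbols of Dll1 fall on opposite sides of 0; probes of a gene are numbered from the brightest down.

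Every one of the 9 genes had a probe well above background in all 4 channels, as did 12 of the 14 probes. The exceptions were the 2 dimmer Notch2 probes. Over the whole array, between 53.1% and 60.9% of probes were well above background per channel. Of the 14 probes, 13 could be tested, and 6 were called, 5 of them higher and 1, a dim Jag1 probe, lower.

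The 4 genes with several probes give an internal comparison, because their probes bind different stretches of the transcript. Each probe is 60 bases long. The first 30 bases of the 9 probes concerned are shown in lower case, 5′ to 3′ as in the array's design, so that the measured stretches can be told apart; none of the 6 pairs of probes to one gene shared a 15-base stretch over their full length.
Notch1 probe 1 (A_51_P508510): ggcactaggggaaaaacatatctgttccaa
Notch1 probe 2 (A_52_P183088): tatgtacttttattttccacagaaacactg
Notch2 probe 1 (A_52_P289213): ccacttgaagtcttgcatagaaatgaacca
Notch2 probe 2 (A_52_P448796): tctgtggtaatctaggatgatagttttctc
Notch2 probe 3 (A_51_P216397): cccagagtctcctgaccaatggtcaagctc
Jag1 probe 1 (A_52_P634090): ggagtattctcataagctagttgaatactt
Jag1 probe 2 (A_51_P280906): acgagaacaaaaactccaaaatgtcaaaaa
Dlk1 probe 1 (A_51_P135618): cgctttttgtggtggagtttgctctattgt
Dlk1 probe 2 (A_52_P177324): tgcgctacaaccacatgcttcgcaagaaga

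The mean log2 ratios of the Notch1 probes differed by 0.0056 and those of the Dlk1 probes by 0.0091. The brightest Jag1 probe lay 0.44 above the dimmer one, and the brightest Notch2 probe lay 1.19 above the second. Probes of Notch1 and Dlk1 thus gave one value per gene, whereas those of Jag1 differed in size and those of Notch2 in size and in detection.

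Among the receptors, Notch4, best known from vascular endothelium, was the only one called. Its normalized log2 signal was 7.83 (E14.5) and 8.19 (E15.5) in 2D culture, against 11.07 and 11.39 in RTOC. Both RTOC values lay above both 2D values, and the rise was almost the same on each array. The log2 ratios were 3.24 and 3.20 and averaged 3.22 ± 0.03 (SD, n = 2 arrays; SE 0.25; 95% interval 2.60 to 3.85), a 9.33-fold difference (limma, adjusted p = 0.0019). Of the 13506 genes tested, 237 had a higher mean log2 ratio.

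Notch1, the receptor that T-cell progenitors use, did not pass the threshold. Its signal, measured at 10 spots per array, was 10.12 and 9.90 in 2D culture and 10.62 and 11.43 in RTOC (E14.5 then E15.5). RTOC was higher on both arrays, by unequal amounts. The log2 ratios of 0.50 and 1.52 averaged 1.01 ± 0.73 (SD, n = 2; SE 0.33; limma, adjusted p = 0.073). The second probe gave 0.49 and 1.52 (adjusted p = 0.074 in limma). Between arrays the 2D signal of the brightest probe differed by -0.22 and the RTOC signal by 0.81 (log2, E15.5 minus E14.5), so the gap lay mostly in the RTOC channel.

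Notch3, expressed by mural cells among others, was measured at 10.58 and 11.97 in 2D culture and at 11.72 and 12.26 in RTOC (log2 signal, E14.5 then E15.5). The groups overlapped, since the 2D signal of the E15.5 array exceeded the RTOC signal of the E14.5 array. The log2 ratios were 1.14 and 0.30, with a mean of 0.72 ± 0.59 (SD, n = 2; SE 0.31), and the gene was not called (limma, adjusted p = 0.13).

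Notch2, a receptor with broad expression, had log2 signals of 11.48 and 11.46 in 2D culture and of 11.18 and 11.63 in RTOC by its brightest probe. The cultures overlapped, and the log2 ratios of -0.30 and 0.17 took opposite signs. Their mean was -0.07 ± 0.33 (SD, n = 2; 95% interval -0.74 to 0.61; limma, adjusted p = 0.87). A second probe was lower in RTOC on both arrays, with log2 ratios of -1.95 and -0.56 (adjusted p = 0.062 in limma), but was not well above background in RTOC on the E14.5 array. The third probe was well above background only in RTOC on the E15.5 array and was not tested. The 3 probes do not give one value for Notch2.

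**Figure D2:**
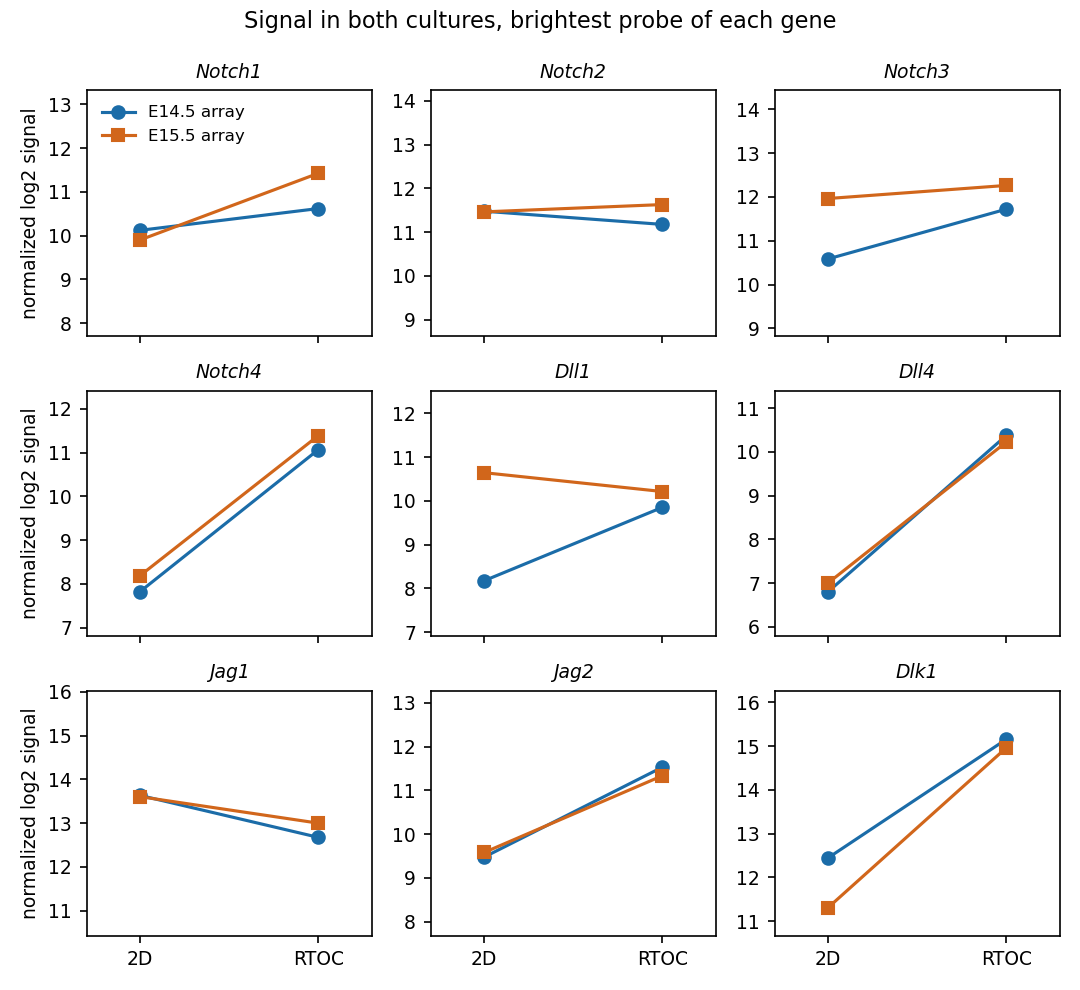
Normalized log2 signal (y axis, every panel spanning the same range) of the brightest probe of each gene in 2D culture and RTOC, joined per array, with circles for E14.5 and squares for E15.5. Lines for Notch4, Dll4, Jag2 and Dlk1 climb together from 2D culture to RTOC, whereas those of Dll1 run in opposite directions from 2D signals of 8.18 and 10.65.

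Among the Delta-like ligands, Dll4, the thymic epithelial ligand for Notch1, had the highest mean log2 ratio of the 9 genes. Its log2 signal was 6.80 and 7.00 in 2D culture and 10.37 and 10.22 in RTOC (E14.5 then E15.5). The cultures were widely separated and the arrays close. The log2 ratios were 3.57 and 3.22, a mean of 3.40 ± 0.25 (SD, n = 2; SE 0.26; 95% interval 2.74 to 4.05) or 10.5-fold (limma, adjusted p = 0.0018). Its rank was similar to that of Notch4, with 205 genes above it.

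The size, though not the call, of the Dll4 and Notch4 differences depended on background correction. With a normexp background correction, which adds an offset of 50 to every signal, and loess within each array, the mean log2 ratio was 1.70 for Dll4 (adjusted p = 0.017 in limma) and 2.01 for Notch4 (adjusted p = 0.012 in limma). Dll4 was dim in 2D culture, at a normalized intensity of 112 and 128, where the lowest normalized intensity of any probe well above background was 81.1 and 76.5.

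Dll1, the other Delta-like ligand that activates Notch receptors, moved in opposite directions on the arrays. Its log2 signal, again from 10 spots per array, was 8.18 and 10.65 in 2D culture and 9.85 and 10.21 in RTOC (E14.5 then E15.5). The log2 ratios were 1.68 and -0.43, with a mean of 0.62 ± 1.49 (SD, n = 2; 95% interval -0.66 to 1.91; limma, adjusted p = 0.40). The 2D signal was 2.47 higher on the E15.5 array and the RTOC signal 0.36 higher, so most of the gap lay in 2D culture. Spots within an array lay close together: they ranged from 1.49 to 1.80 at E14.5 (SD 0.11) and from -0.58 to -0.34 at E15.5 (SD 0.07).

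**Figure D3:**
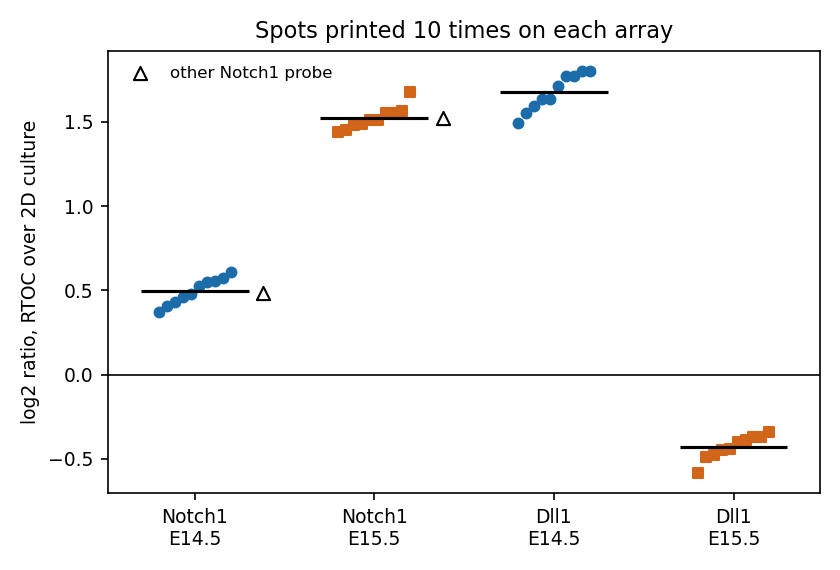
Log2 ratio of RTOC over 2D culture (y axis) at each of the 10 spots of the Notch1 and Dll1 probes on each array, with the mean as a line and triangles for the second Notch1 probe. Spots of one array stay within 0.4 of each other, and the arrays do not overlap for either gene.

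Spots of one array share the RNA, the labelling and the slide, so they show the precision of the measurement and are no replicates of a culture. For Notch1 they ranged from 0.37 to 0.61 at E14.5 (SD 0.08) and from 1.44 to 1.68 at E15.5 (SD 0.07). For both genes the SD between arrays, 0.73 for Notch1 and 1.49 for Dll1, was far above the SD between spots.

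Among the Jagged ligands, Jag2 was higher in RTOC. Its log2 signal was 9.48 and 9.58 in 2D culture and 11.53 and 11.34 in RTOC (E14.5 then E15.5). The 2D values lay within 0.11 of each other and well below both RTOC values. The log2 ratios of 2.06 and 1.75 averaged 1.90 ± 0.21 (SD, n = 2; SE 0.26; 95% interval 1.26 to 2.55), a 3.74-fold difference (limma, adjusted p = 0.0062).

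Jag1, which like Jag2 activates several Notch receptors, had the opposite sign. By its brightest probe the log2 signal was 13.64 and 13.61 in 2D culture and 12.68 and 13.00 in RTOC. RTOC was lower on both arrays without overlap. The log2 ratios were -0.96 and -0.60, with a mean of -0.78 ± 0.25 (SD, n = 2; 95% interval -1.43 to -0.13), and the gene was not called (limma, adjusted p = 0.075). The dimmer probe, at log2 signals of 7.48 and 7.77 in 2D culture and 6.48 and 6.32 in RTOC, had log2 ratios of -1.00 and -1.44 and was called (mean -1.22 ± 0.31, SD, n = 2; adjusted p = 0.025 in limma). The brightest probe was also called lower under normexp and loess (mean log2 ratio -0.77, adjusted p = 0.046 in limma).

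Dlk1, a membrane protein related to the Delta ligands that lacks the domain by which they activate Notch, was higher in RTOC by both probes. The brightest gave log2 signals of 12.45 and 11.31 in 2D culture and of 15.16 and 14.96 in RTOC (E14.5 then E15.5). The cultures were separated by more than either differed between arrays, and the 2D signal was 1.14 lower on the E15.5 array. The log2 ratios were 2.71 and 3.65, a mean of 3.18 ± 0.67 (SD, n = 2; SE 0.32; 95% interval 2.38 to 3.98) or 9.07-fold (limma, adjusted p = 0.0030). The second probe gave 2.75 and 3.59 (mean 3.17, adjusted p = 0.0027 in limma).

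Ordered by mean log2 ratio with quantile normalization, the called genes ran Dll4, Notch4, Dlk1 and Jag2. With normexp and loess the order was Dlk1 (2.95), Notch4 (2.01), Dll4 (1.70) and Jag2 (1.50). With quantile normalization, Dll4, Notch4 and Dlk1 lay within each other's 95% intervals. The interval of Jag2 lay below those of Dll4 and Notch4 and overlapped that of Dlk1. No difference between genes was tested. All 4 calls were lost when the filter on dim probes was dropped (0 of 9 called; limma, adjusted p of 0.12 to 0.13 for the 4 genes; 5 of 9 genes at an unadjusted p under 0.05), with the ratios themselves unchanged. They were also lost under the methods' t-test once its p-values were adjusted over all probes (adjusted p of 0.33 to 0.36 for the 4 genes; 2 of 9 genes at an unadjusted p under 0.05).

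**Figure D4:**
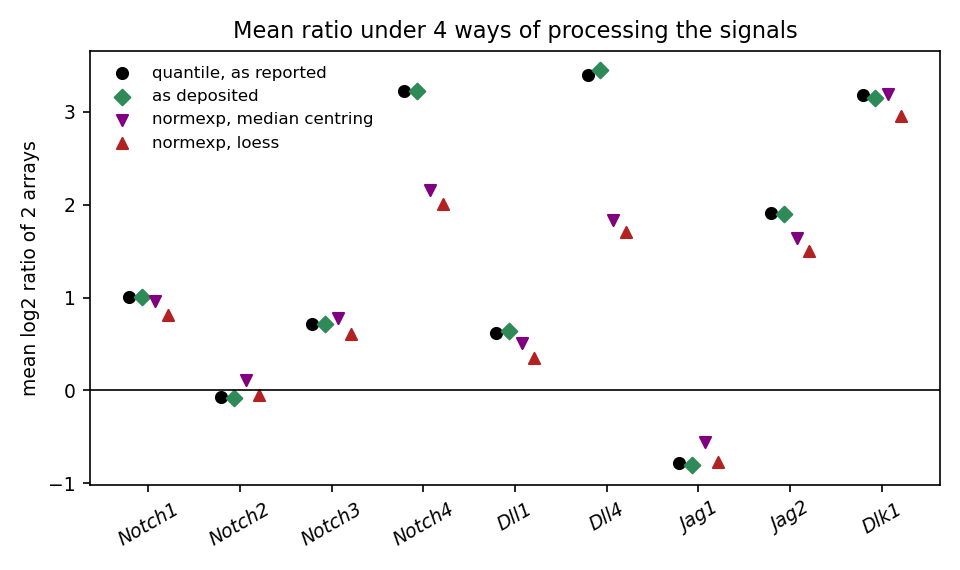
Mean log2 ratio of RTOC over 2D culture (y axis, 2 arrays) of each gene under 4 ways of processing the signals: quantile normalization as reported, processed signals as deposited, and normexp background correction followed by median centring or by loess. Dll4 and Notch4 shrink to 1.70 and 2.01 under normexp and loess, and Dlk1 stays between 2.95 and 3.19.

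For all 9 genes the 250 bases before an annotated transcription start were searched, as the RefSeq table gives them for GRCm38.p6. They are shown for Dll4 and Notch4. Capitals mark ACGC or its reverse complement GCGT, the invariant core of the motif that Foxn1 binds. The Dll4 window, at chr2:119325534-119325783 on the plus strand, ends at the base before the annotated gene. The Notch4 window, at chr17:34564045-34564294 on the plus strand, has its last 9 bases inside the annotated gene. The windows of Dlk1 and Jag2 lie wholly inside the annotated gene, before a later start, and are not shown.
Dll4 upstream: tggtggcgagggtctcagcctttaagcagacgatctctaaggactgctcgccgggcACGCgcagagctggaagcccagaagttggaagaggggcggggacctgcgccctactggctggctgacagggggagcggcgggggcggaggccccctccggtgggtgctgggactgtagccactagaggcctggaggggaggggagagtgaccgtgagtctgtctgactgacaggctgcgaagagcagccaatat
Notch4 upstream: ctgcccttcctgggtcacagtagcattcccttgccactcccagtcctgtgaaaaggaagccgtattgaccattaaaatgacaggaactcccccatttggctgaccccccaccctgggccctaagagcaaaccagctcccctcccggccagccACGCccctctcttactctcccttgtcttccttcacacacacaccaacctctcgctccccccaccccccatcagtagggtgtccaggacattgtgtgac

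The window held the core at 1 place each for Dll4 and Notch4, and at 2 places each for Dlk1 and Jag2. All 10 windows of the 9 genes held it, 5 of them wholly outside the annotated gene and 5 at least partly inside it, those of the genes that were not called included, with 4 matches for Jag1, and 49.8% of the 32851 windows in the table held it on either strand. GTGGGAA, a motif of RBPJ, was in none of the 10 windows on either strand and in 5.42% of all windows. Overlapping matches, as in the Jag1 window, were each counted. A match is a run of letters only, and binding was not measured in these arrays.

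Of 43 other genes of the pathway, 37 could be tested, and 14 were called, 10 higher and 4 lower in RTOC. Their median log2 ratio was 0.15, the same with the 3 genes of these that were measured in one culture only set to their bound. Of these, Hes5, Mfng and Ncstn were well above background in one culture only and were tested because of that culture, so their calls are no support for a count. Among the 34 genes well above background in all 4 channels, 8 were called higher and 3 lower. Of the 12074 such genes on the array 24.7% were called, 12.5% higher and 12.2% lower. With normexp and loess, Furin was the 1 pathway gene called lower. Of the 4 target genes well above background throughout, 3 were higher, and Heyl was not called with normexp and loess (adjusted p = 0.065 in limma). Hey1, a transcriptional repressor induced by Notch, had log2 signals of 9.86 and 10.83 in 2D culture and of 15.96 and 16.25 in RTOC, a mean log2 ratio of 5.76 ± 0.48 (SD, n = 2; limma, adjusted p = 0.0016). The log2 ratio of Hey2 averaged 2.37 ± 0.56 (SD, n = 2; adjusted p = 0.0053 in limma; 1.14 with normexp and loess) and that of Heyl 1.32 ± 0.72 (SD, n = 2; adjusted p = 0.036 in limma).

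In 2D culture neither array measured Hes5 well above background, and RTOC exceeded it by at least 1.87-fold. Such a bound, taken after normexp, loess and Aquantile normalization, sets the brighter culture against the higher, per array, of the dim probe's own signal and the lowest signal of any probe well above background. For Hes5 and Ncstn the probe's own signal was the higher, so the bound equals the measured fold on that scale, and all such bounds are open to dye bias. Hes1, the remaining target, had log2 ratios of -0.15 and -0.06, a mean that turned to 0.02 with normexp and loess, and was not called (limma, adjusted p = 0.78).

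Among genes that restrain or turn over the receptor, 3 of 9 were higher and none lower. Nrarp, a feedback inhibitor that Notch itself induces, had log2 ratios of 5.11 and 2.87, a mean of 3.99 ± 1.59 (SD, n = 2; limma, adjusted p = 0.0062), or 2.44 with normexp and loess. As for Dll1, its gap lay in 2D culture, where the log2 signal was 6.49 at E14.5 and 8.83 at E15.5. Unlike Dll1, Nrarp was dim in 2D culture at E14.5, where the lowest normalized intensity of any probe well above background was 81.1. Its ratio on that array and the gap between arrays rest on this dim signal. Dtx1, an E3 ubiquitin ligase that binds the receptor, averaged a log2 ratio of 2.54 ± 0.01 (SD, n = 2; adjusted p = 0.0028 in limma), or 1.32 with normexp and loess. The third was Fbxw7, a ubiquitin ligase subunit that marks the receptor for degradation, named here after its values were seen. Its brightest probe averaged 1.06 ± 0.05 (SD, n = 2; adjusted p = 0.030 in limma) and its other probe 0.57 (adjusted p = 0.14 in limma).

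Modifiers and ligand-side genes split. Mfng, a glycosyltransferase that alters which ligands a receptor prefers, stood clear of background in RTOC alone, by at least 1.35-fold over 2D culture. Of the ligases that act on ligands, Neurl1b was higher, at a mean log2 ratio of 1.50 ± 0.04 (SD, n = 2; adjusted p = 0.012 in limma), or 0.96 with normexp and loess. Neurl1a was lower, at -1.48 ± 0.11 (SD, n = 2; adjusted p = 0.012 in limma), a call lost with normexp and loess (-0.53, adjusted p = 0.065). Egfl7, a secreted endothelial protein that binds Notch, was higher at 1.28 ± 0.63 (SD, n = 2; adjusted p = 0.033 in limma).

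Of the 8 proteases well above background throughout, Furin and Adam10 were lower in RTOC and none was higher, and with normexp and loess Furin was the 1 called. Furin, which cuts the receptor during its maturation, averaged a log2 ratio of -1.72 ± 0.04 (SD, n = 2; adjusted p = 0.0076 in limma). Ncstn, a subunit of gamma-secretase, was not well above background in RTOC on either array and was at least 1.24-fold lower there. Adam10, which sheds the receptor's outer part and is named here after its values were seen, averaged -1.00 ± 0.03 (SD, n = 2; adjusted p = 0.035 in limma) and -0.25 with normexp and loess (adjusted p = 0.22). Rbpj, the DNA-binding partner of the cut receptor, had log2 ratios of -1.74 and -0.57 and was not called (limma, adjusted p = 0.060), though it was with the signals as deposited (mean -1.18, adjusted p = 0.046).

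**Figure D5:**
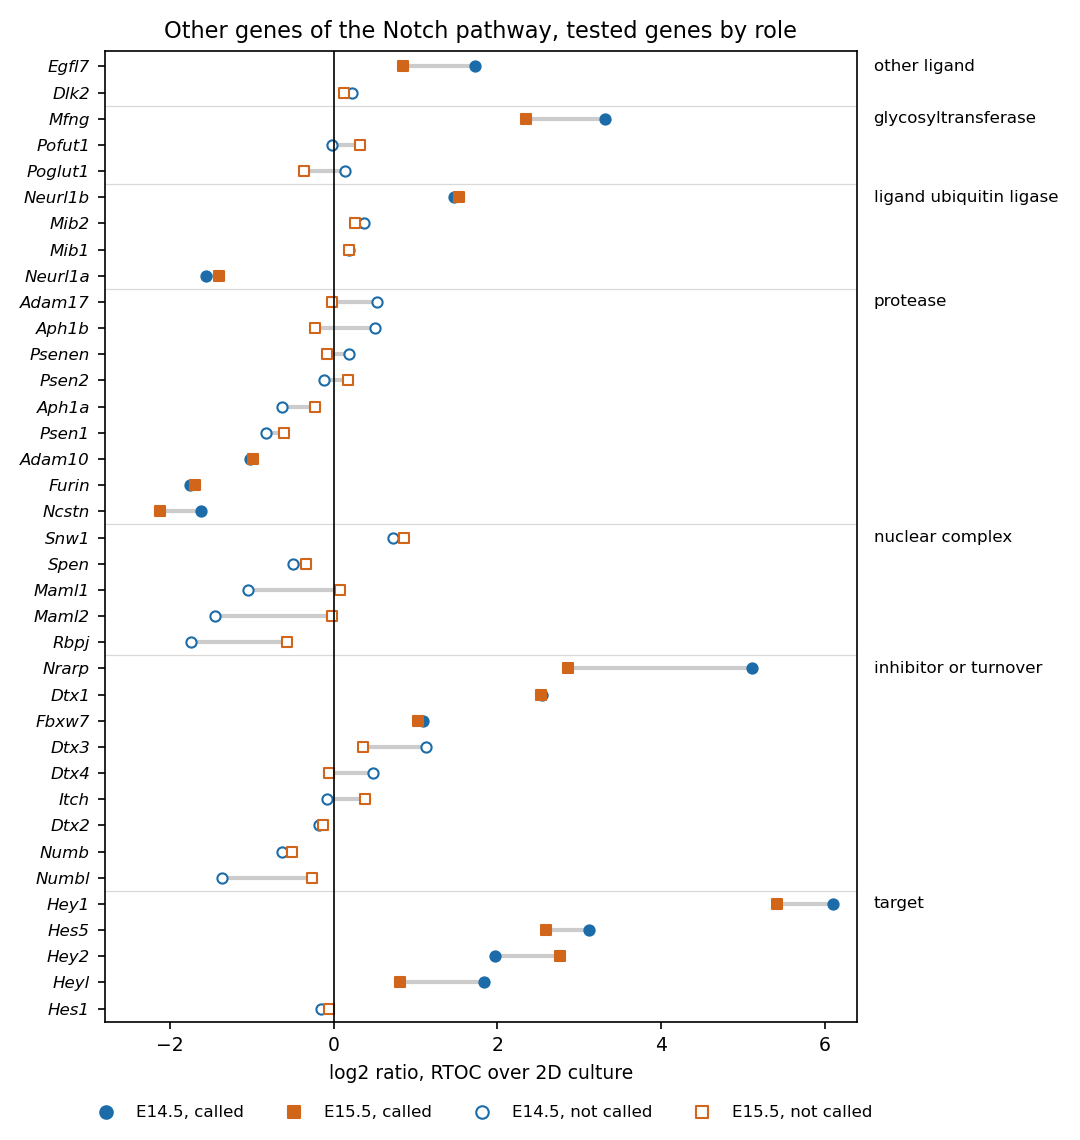
Log2 ratio of RTOC over 2D culture (x axis) of the 37 tested genes of the wider Notch pathway, grouped by role, with circles for the E14.5 array, squares for the E15.5 array and filled symbols for genes called at an adjusted p under 0.05. Hey1, Hey2 and Heyl have filled symbols right of 0, and Hes5, Mfng and Ncstn, dim in one culture, are plotted at their fitted ratio although only a bound can be given.

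Markers of the cell types in such cultures also differed, and their part in the ratios above was not tested. Of 11 thymic epithelial markers, 6 were higher and 2 lower, and their summed signal had log2 ratios of 1.86 and 0.77 (E14.5 then E15.5), with summed intensities of 295495 and 625089 in 2D culture and 1070310 and 1066150 in RTOC. Foxn1 itself was measured at log2 signals of 8.79 and 9.11 in 2D culture and 11.47 and 11.74 in RTOC, a mean log2 ratio of 2.65 (limma, adjusted p = 0.0026). The 2 markers called lower were Cldn3 and Cldn4, at mean log2 ratios of -3.26 and -4.26. Epcam (-0.70), Krt8 (0.28) and Krt18 (0.69) were not called, and Krt5 (2.90) was called higher. The other markers called higher were Ccl25 (6.96), Prss16 (5.29), Ly75 (4.47) and Psmb11 (3.90). The brightest markers, which weigh most in the sum, were Krt8 and Krt18 in 2D culture, joined by Ccl25 and Krt5 in RTOC. All 11 markers, the keratins Krt8, Krt18 and Krt5 among them, were well above background in every channel.

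Endothelial markers, beside which Notch4, Dll4 and the Hey genes are read, were called higher for 7 of 9 tested. Only 4 of these 9 were well above background in all 4 channels. Of those 4, Emcn and Esam were called higher and none lower. Pecam1, Cdh5, Tie1 and Tek were tested only because of RTOC, so their calls are no support for a count. On the E14.5 array Cldn5, also called higher, was well above background in RTOC alone. With normexp and loess, 4 of the 9 were called higher, namely Cdh5, Cldn5, Emcn and Esam, so this count still holds Cdh5. The summed intensity of all 10 was 13458 and 2858 in 2D culture and 9682 and 14275 in RTOC, giving log2 ratios of -0.48 and 2.32. Flt1 had a log2 signal of 13.52 in 2D culture at E14.5 and 10.93 at E15.5, with log2 ratios of -3.16 and -0.58. The next brightest marker in 2D culture at E14.5 was Kdr, at 10.03, so the sum there was mostly Flt1. The other markers well above background throughout, Kdr, Esam and Emcn, had log2 ratios of 0.03, 2.39 and 3.16 at E14.5. Cdh5, the endothelial cadherin, stood clear of background in RTOC alone, by at least 5.01-fold over 2D culture. In all, neither array had 5 of the 10 endothelial markers well above background in 2D culture.

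Smooth muscle and pericyte markers were lower for 6 of 8 tested and higher for 1, with summed log2 ratios of -2.90 and -3.24, and Des was not well above background in any channel. Fibroblast markers were higher for 3 and lower for 5 of 9, with summed log2 ratios of -0.69 and -0.39. Macrophage markers were higher for 4 of 6, at 1.39 and 1.96. Haematopoietic and thymocyte markers were higher for 1 and lower for 1 of the 5 well above background in all 4 channels, with summed log2 ratios of 1.53 and 0.57, and Cd8a and Rag2 were not well above background in any channel.

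Genes with the pattern most like that of the highest and the lowest called member were found by Euclidean distance over the 4 channel signals, each gene centred on its mean, among 12075 genes. For Dll4 these were Icam2, an adhesion molecule of endothelial and blood cells, at a distance of 0.12, Ppp1r27 at 0.14 and Cybrd1 at 0.17. For Jag2 they were Hebp1 at 0.067, Zbtb12 at 0.10 and Tspan18 at 0.15. The distance says nothing of shared function.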

How the data were processed

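The 2 arrays were Agilent whole mouse genome two-colour arrays. Per the file headers, the deposited files hold Agilent Feature Extraction intensity values per spot, with background subtraction and dye normalization already applied to the processed signals. The deposited series table holds the authors' log10 ratio of the processed signals of RTOC over 2D culture, which matched the ratio of the 2 processed signals to within 5e-10. The submitters' processing notes name Feature Extraction 11.5.1.1 and the file headers 9.1.3.1. The sources also differ on the RNA extraction kit and on the scanner.

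Control spots and non-uniform outlier spots (5 on the E14.5 array, 1 on the E15.5 array) were left out. As the study's methods state, quantile normalization was used. It was applied to the log2 processed signals of all 4 channels, which were then averaged over the spots of a probe. Log2 ratios were fitted with limma 3.58.1 (R 4.3.3) as an intercept with eBayes on both arrays, two-sided, with Benjamini-Hochberg adjustment over the 23685 probes that had at least 1 channel well above background on each array. The spread rests on 1 residual degree of freedom and limma's prior. A gene was represented by its brightest tested probe. Fits were tested on simulated data. Probes were named through accessions (22951), symbols (6659), older symbols (3109) or the name in the file (8455). Of the other pathway genes, those called with one sign on both arrays were named, up to 12 by size of the log2 ratio, and of the marker lists, bright or undetected genes. Members and lists were chosen with earlier results of these data known. Alternatives were other background corrections, normalizations, filters and tests, and each array alone.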

Additional observations from a re-analysis of the deposited data

Results flagged for a closer look

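Dll1 and Notch2 were the genes of the set whose log2 ratios took opposite signs on the 2 arrays. On the log2 scale, the ratio on the E15.5 array minus that on the E14.5 array was -2.11 for Dll1 and 0.47 for Notch2. With 1 array per stage these differences were not tested, and stage, organ culture length and array cannot be told apart. Of the 20160 probes well above background in all 4 channels, 20.2% had opposite signs.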

How the results depend on the processing

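The 4 called genes, Dll4, Notch4, Jag2 and Dlk1, kept their direction under every alternative. They passed the threshold in 9 of the 11 alternatives with a test, the exceptions being no filter on dim probes and the methods' t-test. These 11 are not all distinct. Adding Aquantile left the ratios of normexp and loess unchanged, and the deposited series values gave the ratios found with no quantile normalization. Without the filter 0 probes and 0 of the 9 genes were called in limma (10666 probes and 5 genes at an unadjusted p under 0.05). The methods' t-test, run on the log2 ratios, called 0 probes and 0 genes after Benjamini-Hochberg adjustment (3539 probes and 2 genes unadjusted), with adjusted p-values of 0.33 to 0.36 for the 4 genes. Jag1 was also called under normexp and loess, with or without Aquantile, giving 5 genes. The Notch2 mean log2 ratio changed sign to 0.11 under normexp and median centring, which moved the median of all probes to 0.12.

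Over all probes, 6820 were called (52.9% higher). The count was 3716 under normexp and loess, with or without Aquantile, 2904 under normexp and median centring (76.4% higher), and 4033 with no replicate block, that is without the array pairing the cultures, where the same 4 genes were called. Either array alone gave mean log2 ratios of 3.22 and 3.57 for Dll4 and of 2.71 and 3.65 for Dlk1, with no test possible. Dll4 was dim in 2D culture. The mean log2 ratios of Dll4 and Notch4 ranged from 1.70 to 3.44 and from 2.01 to 3.23 over the alternatives with a test.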
